A study of Arabidopsis thaliana with 8 samples.

Results

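A set of 72 probes read bright in root and lower, but above 0, in leaf, on arrays that compared these tissues of Arabidopsis thaliana. The members were chosen by their root and leaf intensities: they were the probes annotated to at least 1 gene that read above 0 on all 8 arrays, averaged 1 or more over the 4 root arrays, and had a root mean at least 4 times the leaf mean. Of the 72 members, 38 carried exactly 1 gene and 34 were shared by several genes, out of 692 single-gene and 870 shared probes among the 3439 on the array. A further 89 probes met the same limits without a gene name in the annotation. The root arrays carried total RNA from root material, and the leaf arrays total RNA from leaves, both of wild-type plants of the Columbia 0 ecotype, with 4 arrays per tissue. The labels do not state plant age, growth conditions or the number of plants behind an array. Any p-value therefore measures the spread between these arrays, which may be technical.

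Most plastid proteins are encoded in the nucleus, made in the cytosol and imported. Root cells hold plastids too, mainly non-green ones that lack a working photosynthetic apparatus but still translate plastid genes and make amino acids, fatty acids and other metabolites. Roots also grow from a dividing tip and elongate by loosening their walls, which calls on microtubule motors, membrane traffic and wall enzymes. The members fall on genes of several of these kinds, and on many genes whose role is not given here.

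The root and leaf values chose the members, so these values are a description, and no test of them is used as support. Intensities are relative, each array running from 0 to a ceiling at 100, and the highest value of any member on any array was 60.7. By leaf mean, 62 of the 72 members lay above the median of all probes, 0.156, and 25 lay above the 75th percentile. All probes include those at 0 in leaf, while members had to read above 0 on every leaf array. The choice of members thus favours a higher position. Other probes above 0 on all arrays were not ranked in this way, so nothing is read from these counts. The root-to-leaf ratio, root mean divided by leaf mean, had a median of 6.28 over the single-gene members and 6.95 over the shared members. It was 5 or more at 54 of the 72 members, 10 or more at 22, and 20 or more at 3. On the deposited intensities 22.7% of all probes had a root mean at least 4 times the leaf mean. The lowest root array lay above the highest leaf array at all 72 members, against 34.3% of all probes, and the choice of members nearly fixes this separation. Likewise, limma, a linear model fitted over all probes, called all 72 members higher in root at a Benjamini-Hochberg adjusted p below 0.05, where 20.1% of all probes were called in that direction and 42.2% in either. Nothing is read from that count, because the same values chose the members. The size of the ratio depends on the scaling: with each array centred on its median, the median ratio of the 72 members was 3.62, the lowest 2.28, and 32 members had a ratio of 4 or more. With root and leaf exchanged, the same limits held for 28 annotated probes, of which 12 carried 1 gene. Medians of the deposited arrays were 0.258 to 0.317 in root and 0.150 to 0.176 in leaf, and these counts were not adjusted for that.

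**Figure D1:**
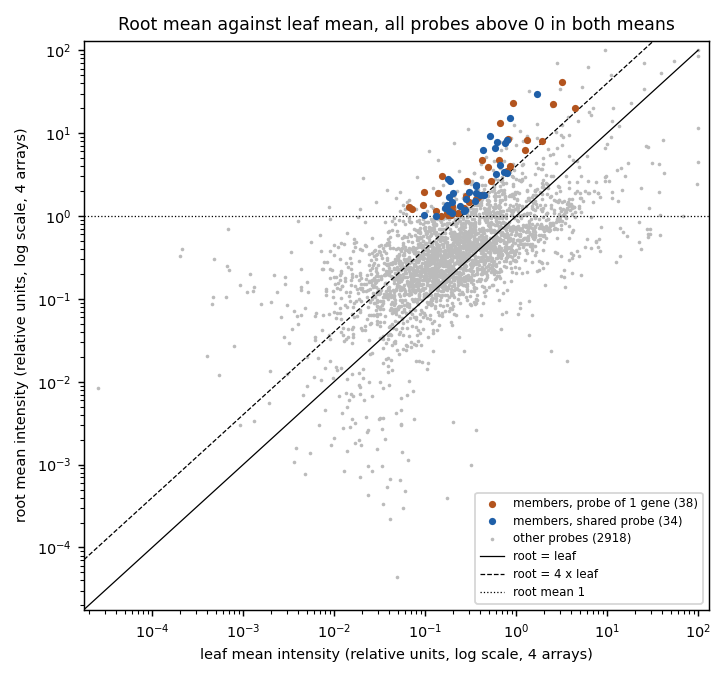
Each point is a probe, with its leaf mean on the horizontal and its root mean on the vertical axis (relative intensity, log scales, 4 arrays per mean). The 38 single-gene and 34 shared members lie above the dashed line, where root is 4 times leaf, and above the dotted line at a root mean of 1; grey points in the same corner are probes with no gene name or with an array at 0.

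Members closest to the limit on the root mean were AT1G62150 at 1.02, AT3G20150 at 1.01 and the probe of AT1G52420 and AT3G15940 at 1.01. Just outside it lay AT5G49590 at 0.957, AT4G21170 at 0.935 and the probe of AT5G64110 and AT5G64100 at 0.933. Closest to the limit on the ratio were AT1G06730 at 4.17, the probe of AT2G44400, AT2G42060 and AT2G27660 at 4.16, and the probe of AT1G56060 and 4 other genes at 4.02. Just outside were the probe of AT1G15710 and AT5G34930 at 3.98, that of AT5G56220 and AT4G23440 also at 3.98, and AT2G46220 at 3.92. At least 1 array at 0 kept out 13 further annotated probes. At AT5G15280 and AT3G09250 the lowest leaf array read 0.00431 and 0.00510, so that both barely met the condition of a value above 0.

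The tissues were checked against marker lists. Of 32 leaf markers, genes of the photosystems, the light-harvesting antenna and the Calvin cycle, 8 were measured on 9 probes, and none was a member. Among the 8 of these probes that could be tested, 1 was higher in root, 5 were higher in leaf and 2 did not pass limma, with a median log2 difference, root minus leaf, of -2.85 against 0.05 over all probes. LHB1B2, an antenna protein gene, averaged 0.481 ± 0.174 in root and 22.5 ± 2.53 in leaf (SD, n = 4 arrays per tissue), and SBPASE of the Calvin cycle was listed at 0 on every array. The summed intensity of the leaf markers was 65.6 to 84.4 in root and 53.5 to 62.8 in leaf. The root sum came mainly from PSBW, a photosystem II subunit gene outside the members, at 70.8 ± 8.33 in root and 25.1 ± 1.24 in leaf. None of 15 root markers had a probe, so the root label was not checked against such genes. Array sums were 2868 to 3505 in root and 3021 to 3426 in leaf. The members held 9.77% to 11.9% of the sum on root arrays and 1.20% to 1.27% on leaf arrays. Their choice by root mean and ratio nearly fixed this larger share in root, so it is no check of the tissues. In whole tissue, fewer cells of a type and less RNA per cell cannot be told apart.

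Genes of plastid translation and plastid gene expression were among the members. AT5G65220, which encodes a protein of the large subunit of the plastid ribosome, read 60.7, 57.5, 22.1 and 22.9 on root replicates 1 to 4, against 4.59, 4.66, 1.82 and 1.71 on leaf replicates 1 to 4. Replicates 1 and 2 read higher than replicates 3 and 4 in both tissues, and the tissues did not overlap. Its mean was 40.8 ± 21.2 in root and 3.20 ± 1.65 in leaf, a ratio of 12.8 (SD, n = 4 arrays per tissue, as for all means that follow). The ratio was 12.8 within replicates 1 and 2 and 12.7 within replicates 3 and 4. AT1G12800, which encodes a protein with an S1 RNA-binding domain located in plastids, read 17.9, 19.0, 7.74 and 8.76 in root, against 0.976, 1.05, 0.240 and 0.361 in leaf. Here too replicates 1 and 2 were the higher arrays of each tissue, and the means of 13.3 ± 5.92 in root and 0.656 ± 0.415 in leaf gave a ratio of 20.3. Another probe of AT1G12800, shared with AT3G23700 and described below, did not show this difference, at 0.812 in root and 0.747 in leaf. Among proteins that act on organelle transcripts, AT5G15280, a pentatricopeptide repeat (PPR) protein, averaged 1.37 ± 0.489 in root and 0.0956 ± 0.0782 in leaf. AT1G62150, of the family related to mitochondrial transcription termination factors, averaged 1.02 ± 0.183 in root and 0.179 ± 0.0175 in leaf.

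Other nuclear genes of plastid ribosomal proteins were not called higher in root. Of the 37 genes on the list of plastid ribosomal proteins, 6 had a probe. Apart from AT5G65220, 0 of the 5 probes were called higher in root by limma, 1 was called lower and 4 did not pass, beside 20.1% of all probes called higher in root and 22.1% called higher in leaf. The median log2 difference of these 5 was -0.70, against 0.05 over all probes. That median was the value of AT1G29070 alone (± 1.30 SE), a dim probe. Its deposited means, 0.0702 in root and 0.0562 in leaf, had the other order, so no tendency is read from the median. AT3G54210, the one called, averaged 0.381 ± 0.0915 in root and 0.674 ± 0.203 in leaf (log2 difference -1.29 ± 0.35 SE, limma adjusted p = 0.0207). AT4G01310 averaged 0.624 ± 0.154 in root and 0.257 ± 0.0849 in leaf, a difference of 0.71 ± 0.25 that did not pass (limma adjusted p = 0.0570). AT3G13120 averaged 0.132 ± 0.0234 in root and 0.0301 ± 0.0538 in leaf, with 2 leaf arrays at 0, and its difference of 1.95 ± 1.06 did not pass either (limma adjusted p = 0.174). AT1G29070 and AT1G64510 each had arrays at 0 in both tissues.

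The members included 2 genes whose proteins belong to the thylakoid membrane system of green plastids. AT1G76450, which encodes a PsbP-domain protein of the thylakoid lumen, read 20.2, 17.0, 25.8 and 25.8 in root, against 2.38, 2.26, 2.64 and 2.88 in leaf. Replicates 3 and 4 read higher than replicates 1 and 2 in both tissues, the reverse of AT5G65220, and the ratio of means was 8.74. NdhS, a subunit of the chloroplast NADH dehydrogenase-like complex that takes part in cyclic electron flow, read 21.3, 20.5, 18.7 and 18.9 in root, against 4.69, 4.53, 4.12 and 4.31 in leaf. All 4 arrays of each tissue lay close together, with means of 19.9 ± 1.29 in root and 4.41 ± 0.253 in leaf and a ratio of 4.50.

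Enzymes of metabolism made up 7 of the single-gene members, with ratios from 4.17 to 11.4. AT3G06200, which encodes a guanylate kinase, the enzyme that phosphorylates GMP, read 4.17, 4.22, 5.14 and 5.46 in root, against 0.325, 0.430, 0.415 and 0.499 in leaf. AT1G06730, a sugar kinase of the pfkB family, read 8.6, 8.56, 7.69 and 7.16 in root, against 2.07, 1.92, 1.87 and 1.83 in leaf. The 4 arrays of each tissue were close together for both genes, and the ratios were 11.4 and 4.17. CYN, cyanase, which breaks down cyanate, averaged 3.93 ± 0.126 in root and 0.489 ± 0.0833 in leaf. AT4G29890, annotated by family as a choline monooxygenase-type protein, averaged 2.67 ± 0.326 in root and 0.527 ± 0.0266 in leaf. The others were AT1G50390, a further pfkB-family gene, AT4G27700, a plastid rhodanese-domain protein, and AT4G27250, related to dihydroflavonol reductases, with root means of 1.73, 1.33 and 1.10 and leaf means of 0.280, 0.198 and 0.197. At AT1G50390 the ratio was 11.3 within replicates 1 and 2 but 3.81 within replicates 3 and 4. Its leaf arrays read 0.175, 0.179, 0.257 and 0.509, and the mean of root replicates 1 and 2 was 1.37 times that of root replicates 3 and 4.

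Genes of the cell surface and of membranes came next. AT4G18180, of the pectin lyase-fold family that includes polygalacturonases, enzymes that cut wall pectin, read 6.19, 5.63, 6.89 and 6.02 in root, against 1.04, 1.36, 1.20 and 1.45 in leaf. AT4G22490, of the lipid transfer protein family, averaged 1.68 ± 0.524 in root and 0.384 ± 0.0981 in leaf. Its ratio was 6.99 within replicates 1 and 2 and 2.65 within replicates 3 and 4, the lowest within-pair ratio among the 72 members. AT1G25500, a choline transporter-like membrane protein, read 5.70, 5.98, 3.51 and 3.53 in root, against 0.756, 0.806, 0.530 and 0.513 in leaf, with replicates 1 and 2 higher in both tissues and a ratio of 7.19. AT4G39690, a mitofilin-type protein that shapes the inner membrane of mitochondria, averaged 3.44 ± 0.435 in root and 0.796 ± 0.0503 in leaf. PRA1.B3, a prenylated Rab acceptor of the membrane traffic system, read 2.91, 2.45, 1.12 and 1.20 in root, against 0.0801, 0.10, 0.0981 and 0.113 in leaf. Only its root arrays split by replicate, and the ratio was 29.7 within replicates 1 and 2 and 11 within replicates 3 and 4.

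A pair of single-gene members belong to signalling and defence. AT5G40030, a protein kinase gene, read 7.65, 7.94, 9.03 and 8.86 in root, against 0.340, 0.483, 1.14 and 1.28 in leaf. The leaf arrays 1 and 2 were lower than leaf arrays 3 and 4, so that the ratio of 10.3 was 18.9 within replicates 1 and 2 and 7.41 within replicates 3 and 4. AT3G04210, which encodes a TIR and nucleotide-binding domain protein of the kind that takes part in pathogen recognition, read 4.66, 4.06, 1.71 and 1.73 in root, against 0.158, 0.128, 0.183 and 0.137 in leaf. In this gene root replicates 1 and 2 were the high arrays and the leaf arrays did not split, and the ratio of 20.1 was 30.4 and 10.8 within the replicate pairs.

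There were 3 kinesin genes, microtubule motors that act in mitosis and cell division in plants, among the single-gene members. AT3G44050 averaged 1.77 ± 0.169 in root and 0.413 ± 0.0645 in leaf. AT2G37420 averaged 1.07 ± 0.106 in root and 0.227 ± 0.0907 in leaf, and AT3G20150 averaged 1.01 ± 0.349 in root and 0.149 ± 0.0285 in leaf. Their ratios were 4.28, 4.73 and 6.80, and this grouping was made after the values were seen. No test of its frequency was made.

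Further single-gene members have other roles, among them in the nucleus, in organelles or on RNA. AT1G51350, an armadillo-repeat protein, read 8.40, 8.96, 8.10 and 7.64 in root, against 1.43, 1.38, 1.21 and 1.24 in leaf, with all arrays of a tissue close together and a ratio of 6.30. AT3G04500, with an RNA recognition motif, averaged 2.63 ± 0.138 in root and 0.286 ± 0.0751 in leaf, and AT4G21770, of the pseudouridine synthase family that modifies RNA, 1.16 ± 0.238 in root and 0.130 ± 0.0751 in leaf. AT3G16310, a nucleoporin-type protein, averaged 1.17 ± 0.619 in root and 0.196 ± 0.123 in leaf, and chr31, a chromatin remodelling protein, 1.03 ± 0.0680 in root and 0.190 ± 0.0351 in leaf. AT2G25640, with a SPOC domain found in transcription proteins, had a ratio of 4.70. AT4G31930, of the mitochondrial glycoprotein family, and AT4G17650, related to the coenzyme Q-binding protein of yeast mitochondria, had ratios of 4.40 and 6.25. CUTA, a copper-binding protein found in chloroplasts, averaged 1.48 ± 0.211 in root and 0.306 ± 0.120 in leaf.

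No role is given here for 6 single-gene members. Among them, AT5G06010 had the highest ratio of all members, 24.7, with 33.0, 33.5, 11.2 and 14.0 in root, against 1.5, 1.39, 0.422 and 0.407 in leaf. Replicates 1 and 2 were the higher arrays in both tissues, by 2.64 times in root and 3.48 times in leaf. AT5G27860 read 5.40, 6.15, 2.36 and 2.33 in root, against 0.902, 0.874, 0.783 and 0.862 in leaf. Its ratio was 6.5 within replicates 1 and 2 and 2.85 within replicates 3 and 4, where it would not have met the limit. AT3G09250 read 1.43, 1.33, 1.27 and 1.16 in root, against 0.0561, 0.00510, 0.0280 and 0.174 in leaf, so its ratio of 19.7 rests on leaf values that differ by more than their mean. AT5G66090 and AT4G23080 had ratios of 13.7 and 16.8 and AT3G20490 one of 5.29.

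**Figure D2:**
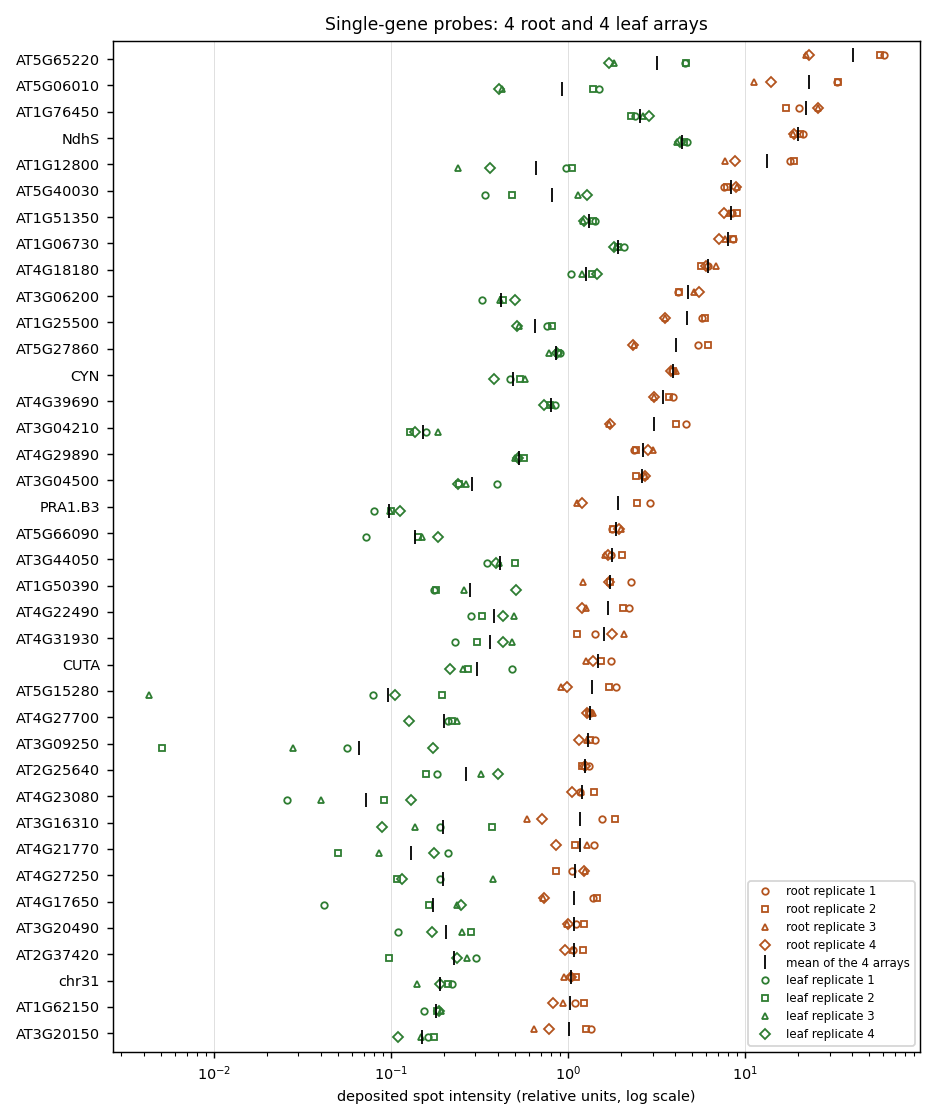
Intensities of the 38 single-gene members on each array, in order of root mean from top to bottom (relative intensity, log scale; orange for root, green for leaf, one symbol per replicate number, black bars for the mean of 4 arrays). Root and leaf arrays do not overlap at any of them, and at genes such as AT5G65220, AT5G06010 and AT1G12800 the arrays of each tissue fall into a pair with replicates 1 and 2 and a pair with replicates 3 and 4.

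From general knowledge of these genes, 6 of the 38 single-gene members encode plastid proteins, 3 mitochondrial proteins and 9 proteins placed elsewhere, and for 20 no location is given here. The plastid proteins were those of AT5G65220, AT1G12800, AT1G76450, NdhS, CUTA and AT4G27700. Their ratios were 4.50 to 20.3, against 4.28 to 19.6 for the 9 placed elsewhere, and the limit of 4 bounds both ranges from below. Locations were not counted for other single-gene probes, so no excess or lack of plastid proteins is read from these counts.

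The shared probes cannot assign their signal to 1 gene, and their values are those of the probe. A probe of 4 armadillo-repeat genes, AT1G59850, AT1G27210, AT5G62580 and AT2G07170, read 27.8, 34.7, 27.2 and 30.3 in root, against 1.66, 1.74, 1.61 and 1.80 in leaf. Arrays of a tissue lay close together, and the ratio was 17.6. A probe of 3 PPR genes, AT5G66500, AT4G39952 and AT3G03580, read 20.3, 22.5, 8.94 and 8.45 in root, against 0.911, 0.991, 0.659 and 0.837 in leaf, with root replicates 1 and 2 above root replicates 3 and 4. The probe of AT1G49000 and AT3G18560, for which no role is given, read 15.9, 12.4, 4.29 and 4.38 in root, against 0.627, 0.544, 0.456 and 0.454 in leaf. Root split by replicate more than leaf at both of these probes, and their ratios were 17.7 and 17.8.

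Shared probes for wall and surface proteins numbered 4, with ratios from 5.42 to 10.3. AT4G38080 and AT2G22510, genes of hydroxyproline-rich glycoproteins, shared a pair of probes that were both members. One read 9.32, 9.70, 7.37 and 6.87 in root, against 1.01, 0.795, 0.788 and 0.619 in leaf, and the other read 4.51, 4.38, 3.72 and 3.83 in root, against 0.626, 0.701, 0.684 and 0.671 in leaf. Their ratios were 10.3 and 6.13. A probe of 4 genes that include pectin lyase-fold enzymes, AT2G43865, AT3G59850, AT2G43870 and AT2G43860, averaged 7.65 ± 0.451 in root and 0.760 ± 0.113 in leaf. The probe of AT5G62350 and AT3G47380, of the invertase and pectin methylesterase inhibitor family, averaged 3.24 ± 0.139 in root and 0.598 ± 0.0959 in leaf.

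For translation in organelles there were 2 shared probes. AT4G26310 and AT3G08740, of the elongation factor P family, shared a probe that averaged 6.66 ± 0.638 in root and 0.586 ± 0.0677 in leaf, a ratio of 11.4. PDF1A and PDF1B, peptide deformylases that trim new proteins in mitochondria and plastids, shared a probe at 1.42, 1.49, 0.612 and 0.603 in root, against 0.0290, 0.201, 0.138 and 0.0241 in leaf. RH39 and AT3G06980, DEAD-box RNA helicases of which RH39 acts on plastid ribosomal RNA, shared a probe at 2.60, 2.61, 3.07 and 2.99 in root, against 0.0431, 0.0223, 0.347 and 0.307 in leaf. The leaf arrays of this probe differed between replicate pairs far more than the root arrays, and its ratio of 15.7 was 79.7 within replicates 1 and 2 and 9.27 within replicates 3 and 4.

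Among the other bright shared probes, that of AT1G23640, AT1G23660, AT1G23610 and AT2G27670 averaged 7.90 ± 4.92 in root and 0.620 ± 0.145 in leaf. The probe of AT1G71970 and AT1G22680 averaged 6.29 ± 1.25 in root and 0.428 ± 0.116 in leaf. AT5G47610 and AT4G17245, RING-type proteins of the ubiquitin system, shared a probe at 3.41 ± 2.10 in root and 0.743 ± 0.244 in leaf, whose ratio was 5.48 within replicates 1 and 2 and 3.01 within replicates 3 and 4. AT2G44400, AT2G42060 and AT2G27660, with cysteine and histidine-rich C1 domains, shared a probe at 3.30 ± 0.860 in root and 0.793 ± 0.387 in leaf. Of the remaining 22 shared members, which include HISN5B and IGPD of histidine synthesis and ELC and ELC-Like of the ESCRT sorting machinery, root means ran from 1.01 to 2.82 and ratios from 4.02 to 15.7.

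**Figure D3:**
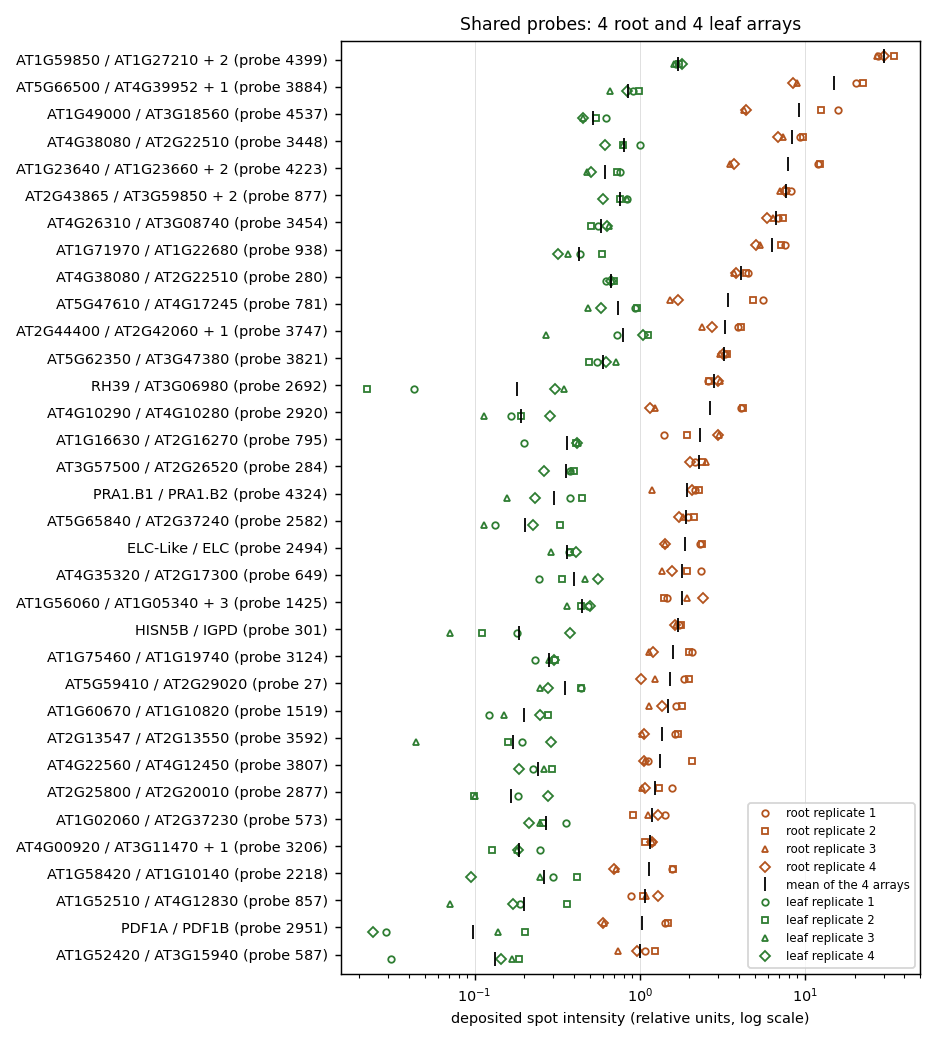
Intensities of the 34 shared members on each array, in order of root mean from top to bottom (relative intensity, log scale; orange for root, green for leaf, one symbol per replicate number, black bars for the mean of 4 arrays; a plus sign gives the number of further genes). The probes of RH39 and of PDF1A show the widest leaf spread, and the root arrays lie to the right of the leaf arrays at each probe.

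The members' genes also had other probes on the array. The genes of 14 members, 3 of them single-gene members, were also annotated to 13 probes that did not meet the limits, and limma was read for these. A further probe that met the limits is itself a member and so is not among the 13, as with the pair of probes of AT4G38080 and AT2G22510. The limits therefore removed probes that were bright and high in root, and the counts and medians that follow do not measure how often probes of a gene agree. Of the 13, 3 were higher in root, 1 was lower in root and 9 did not pass, beside 20.1% of all probes called higher in root, with a median log2 difference of 0.44 against 0.05 over all probes. On the deposited intensities without normalisation, 6 of the 13 were called higher in root, while the median over all probes moved to 0.80. Among the 13, 6 carried exactly the same genes as a member, and of these 1 was higher in root, 1 was lower and 4 did not pass, with a median log2 difference of -0.17.

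The probe with the opposite call was probe 3238, of AT1G16630 and AT2G16270. It read 0.819, 0.706, 0.426 and 0.297 in root, against 2.08, 1.98, 1.18 and 1.15 in leaf, without overlap (log2 difference -1.80 ± 0.33 SE, limma adjusted p = 0.00311). The member with the same annotation read 1.41, 1.92, 3.01 and 2.99 in root, against 0.201, 0.414, 0.425 and 0.419 in leaf. The pair thus gave opposite directions under 1 annotation, and also opposite orders of the replicate pairs in root.

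Probe 1893, of the glycosyltransferase genes AT1G52420 and AT3G15940, went the same way as its member. It averaged 0.800 ± 0.0831 in root and 0.255 ± 0.131 in leaf (log2 difference 1.24 ± 0.33 SE, limma adjusted p = 0.0184, and 0.0813 with centring on array medians). The member averaged 1.01 ± 0.209 in root and 0.133 ± 0.0697 in leaf. The probes of the PPR genes AT1G02060 and AT2G37230 differed: the member averaged 1.18 ± 0.219 in root and 0.271 ± 0.0622 in leaf, but probe 1124 averaged 1.02 ± 0.255 in root and 0.871 ± 0.0788 in leaf (log2 difference -0.04 ± 0.34 SE). For AT1G71970 and AT1G22680 the second probe averaged 0.387 ± 0.0924 in root and 0.308 ± 0.0547 in leaf, and for AT5G65840 and AT2G37240, thioredoxin-fold proteins, 0.161 ± 0.0622 in root and 0.165 ± 0.153 in leaf. The second probe of HISN5B and IGPD read 0.134, 0.124, 0.231 and 0.183 in root, against 0, 0, 0.199 and 0 in leaf, and did not pass (limma adjusted p = 0.107). It passed without leaf replicate 3 (limma adjusted p = 3.13e-04) and on the deposited intensities (limma adjusted p = 0.0378).

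**Figure D4:**
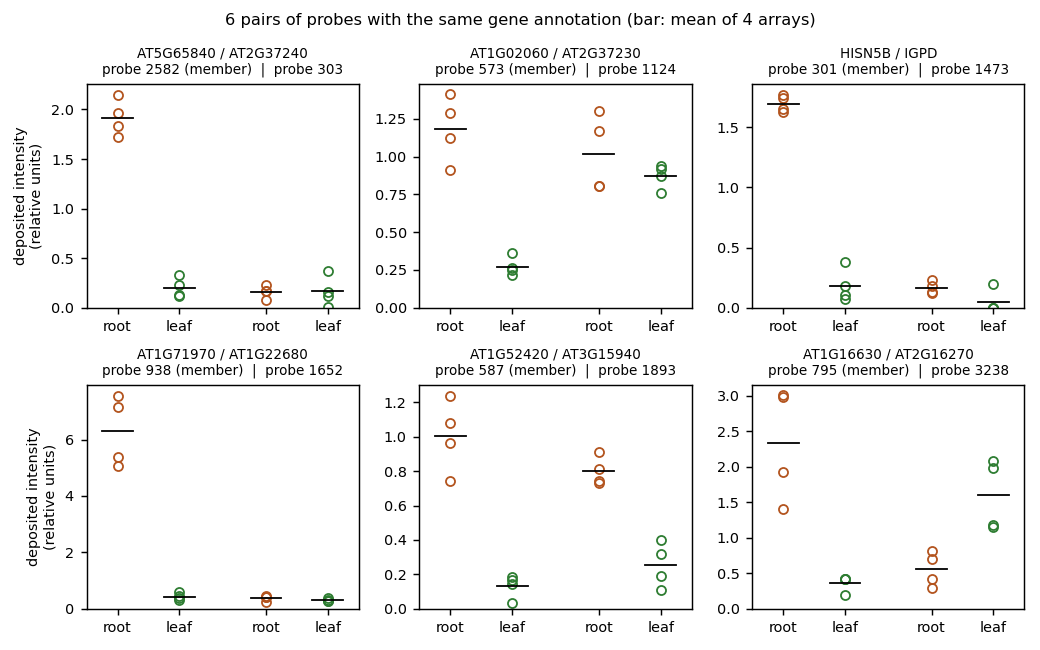
Intensities on 4 root arrays (orange) and 4 leaf arrays (green) for the 6 pairs of probes with identical gene annotation, the member on the left and the other probe on the right of each panel (relative intensity, linear axis from 0, separate for each panel; bars are means). Root lies above leaf at all 6 members, while the other probe is called higher in root for AT1G52420 and AT3G15940 and lower in root for AT1G16630 and AT2G16270.

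The other probes that carried only part of a member's genes, or further ones, numbered 7. Probe 3872, shared by PRA1.B3, PRA1.B1 and PRA1.B2, averaged 0.671 ± 0.243 in root and 0.119 ± 0.0407 in leaf (log2 difference 1.70 ± 0.27 SE, limma adjusted p = 0.00155). The members of these genes, PRA1.B3 alone and the probe of PRA1.B1 and PRA1.B2, had ratios of 19.6 and 6.34. Probe 1243, for AT1G05340 alone, read 0.779, 0.730, 0.420 and 0.459 in root and was listed at 0 on 3 leaf arrays, with 0.0280 on leaf replicate 3 (limma adjusted p = 0.00101). AT1G05340 is also 1 of the 5 genes, of a family of small cysteine-rich membrane-anchored proteins, on the member with the lowest ratio. For the S1-domain gene AT1G12800, a probe shared with AT3G23700 averaged 0.812 ± 0.0449 in root and 0.747 ± 0.176 in leaf (log2 difference -0.16 ± 0.23 SE, limma adjusted p = 0.599), where the single-gene probe had a ratio of 20.3. With centring on array medians the shared probe was called lower in root (-0.68, limma adjusted p = 0.0464). For the kinesin gene AT2G37420, a probe shared with AT3G45850 and AT2G28620 averaged 0.338 ± 0.0551 in root and 0.144 ± 0.0469 in leaf and did not pass (log2 difference 0.44 ± 0.30 SE, limma adjusted p = 0.279). As deposited, without normalisation, that probe passed (1.29, limma adjusted p = 0.0121).

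ELC, ELC-Like and AT2G38830 shared probe 196, which read 1.09, 1.04, 0.203 and 0.199 in root, against 0.0779, 0.192, 0.176 and 0.0540 in leaf. Root replicates 1 and 2 were the high arrays, root replicates 3 and 4 lay near leaf, and the difference did not pass (limma adjusted p = 0.218). Probe 4190, of AT1G75460, AT1G19740 and AT1G18660, averaged 0.168 ± 0.0700 in root and was listed at 0 on 3 leaf arrays, and did not pass either (limma adjusted p = 0.0900), but did without leaf replicate 1 (limma adjusted p = 3.69e-04) and on the deposited intensities (limma adjusted p = 0.0216). Probe 3900, of AT3G11470 and AT2G02765, was listed at 0 on all root arrays and on 3 leaf arrays.

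Replicates 1 and 2 differed from replicates 3 and 4 at many members. The limits did not use this contrast as such, but they used the means of these same arrays. The shares below are therefore a description, not independent of the choice of members. The labels give no reason for such a division. Root replicates 1 and 2 both read above root replicates 3 and 4 at 49 of the 72 members, and the reverse held at 12. This count was not made for other probes, so it is not read as a trait of the members. The mean of root replicates 1 and 2 was at least 1.5 times that of replicates 3 and 4 at 24 members, or 33.3%, and at least 2 times at 14, or 19.4%. Among the 153 other annotated probes above 0 on all arrays with a root mean of 1 or more, these shares were 24.2% and 6.54%. The median ratio of these root means was 1.21 at the members and 1.20 at those 153 probes. The root array sums themselves differed by 1.21 times in the same direction, and the leaf array sums by 1.12 times. Of the 24 members, 18 also had a higher mean in leaf replicates 1 and 2, a count not made for other probes.

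The ratio was 4 or more within replicates 1 and 2 at 69 members, within replicates 3 and 4 at 61, and within both at 58. All 38 single-gene members reached it within replicates 1 and 2, and 31 within replicates 3 and 4. The median spread, SD over mean, was 19.7% in root and 27.1% in leaf. The greatest root difference, 3.45 times, was that of the probe shared by AT4G10290 and AT4G10280, cupin-fold proteins, at 4.09, 4.2, 1.24 and 1.16 in root, against 0.167, 0.190, 0.115 and 0.287 in leaf. Its leaf arrays did not follow the root order. Only 3 members were at least 1.5 times higher in root replicates 3 and 4: AT4G31930, the probe of AT1G16630 and AT2G16270, and the probe of AT1G56060 and 4 other genes.

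**Figure D5:**
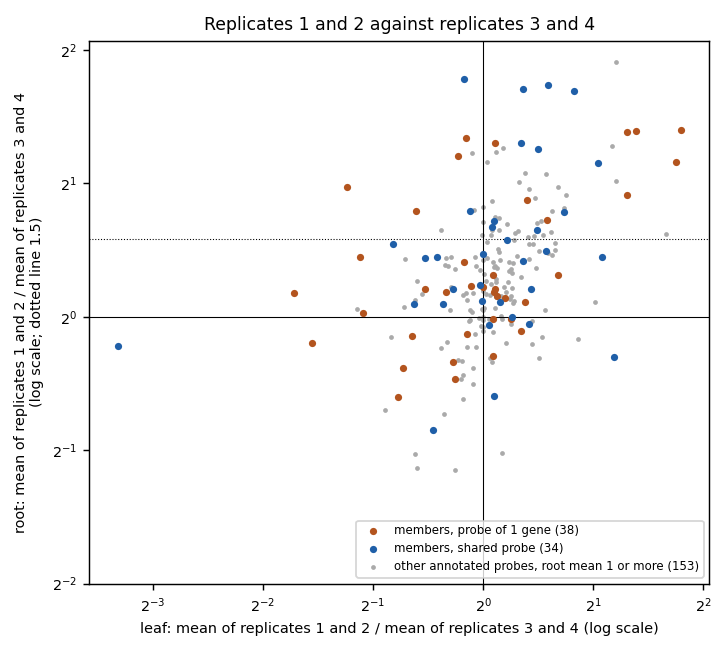
For each probe, the mean of replicates 1 and 2 divided by the mean of replicates 3 and 4, in root (vertical) and in leaf (horizontal), both on log scales, for the 38 single-gene members, the 34 shared members and the 153 other annotated probes with a root mean of 1 or more. Of the 72 members, 24 lie above the dotted line at 1.5, and 18 of these lie to the right of the vertical line, where leaf replicates 1 and 2 are also higher. The count of 18 was not made for other probes.

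The 72 members named 116 different genes. By their order in the RefSeq gene table, 9 pairs of these genes were next to each other, of which 7 pairs sat on the same probe. The other 2 pairs lay on different probes: AT2G27660 and AT2G27670, and AT2G37230 and AT2G37240, each on probes shared with similar genes. Only 1 pair of members, AT4G39690 and chr31, had consecutive probe numbers.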

How the data were processed

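The deposited table holds spot intensities, 1 per probe and array, for 4 root and 4 leaf arrays of Arabidopsis thaliana, grouped by sample title. How the authors made the intensity values is not given in the sources used here; the values are linear, never negative and capped at 100. The number of arrays limits the precision. Gene names came from the platform annotation, and 117 of 118 gene entries on member probes matched RefSeq (TAIR10.1, used for names and gene order only). Roles and locations are general knowledge, not from the files.

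The members and lists were chosen with earlier results of these data known. Ratios, means and SD use deposited values. For the test, intensities were quantile normalised (array medians differed by up to 111.3%), raised to a minimum of 0.00582, percentile 1 of the positive deposited values, and log2-transformed. Probes with all 8 arrays at this minimum (141) were dropped, and limma 3.58.1 in R 4.3.3 fitted tissue over 3298 probes (2-sided, Benjamini-Hochberg over all, threshold 0.05). The fit was tested on simulated data with independent, normally spread noise. These held neither many values at the minimum nor the split between replicate pairs, so its behaviour under those was not checked.

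Text names single-gene members (the 12 highest root means and 5 highest ratios in full), the 12 shared members of highest root mean, other probes of members' genes, list members and probes at the limits. Role groups and other named members were added after values were seen. Alternatives were other scalings, floors, limits and left-out arrays. Sequence features were not analysed here.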

Additional observations from a re-analysis of the deposited data

Results flagged for a closer look

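A single array stood apart from the other 3 of its tissue, by Dixon's criterion, in 9 of 169 groups of 4 arrays checked, 3 in root and 6 in leaf, or 5.33%. Chance flags about 1 in 20 groups of normally spread values. Groups with 3 arrays at 0 do not meet that setting, because any lone value above 0 is then flagged. The share is therefore not read against chance. Among members, the probe of AT4G22560 and AT4G12450 read 2.06 on root replicate 2 and 1.06 to 1.12 on the other root arrays. The probe of AT4G00920, AT3G11470 and AT2G02765 read 1.08 on root replicate 2 and 1.18 to 1.19 on the others. The probe of AT1G16630 and AT2G16270 read 0.201 on leaf replicate 1, against 0.414 to 0.425, and that of AT3G57500 and AT2G26520 read 0.265 on leaf replicate 4, against 0.381 to 0.402. Among the other probes of members' genes, the second probe of AT1G71970 and AT1G22680 read 0.25 on root replicate 1, against 0.417 to 0.449. A lone leaf value above 3 arrays at 0 was read for AT1G05340 (0.0280, replicate 3), for HISN5B and IGPD (0.199, replicate 3), for AT3G11470 and AT2G02765 (0.0534, replicate 2) and for AT1G75460, AT1G19740 and AT1G18660 (0.122, replicate 1).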

How the results depend on the processing

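On the deposited intensities limma called 1138 probes higher in root instead of 664 (69.8% of all calls instead of 47.7%), and 6 of the other probes of members' genes instead of 3. The number of members was 111 with a root mean limit of 0.5 and 33 with a limit of 2. With any 1 array left out it ran from 62 to 79, with 56 members kept in each case, and the calls ran from 545 to 653 higher in root and from 656 to 672 higher in leaf. Replicates 1 and 2 alone gave 91 members and replicates 3 and 4 alone 61, a division chosen after the data were seen. After quantile normalisation 53 of the 72 met the limits, and with centring on array medians the median ratio was 3.62 and the lowest 2.28. The sizes thus depended on the scaling. The choice of members by their ratio nearly fixed the direction in advance, so nothing is read from it. The main fit treated the 4 arrays of a tissue as independent. A replicate block gave 596 probes higher in root and 648 higher in leaf, and changed no call of the 13 other probes. A block for replicates 1 and 2 against 3 and 4, added after the data were seen, gave 727 higher in root and 793 higher in leaf. With it, 3 of the 13 other probes were called higher in root. Deviations of same-numbered arrays correlated at 0.0901 to 0.126, not all above 0.1, and each of the 8 arrays correlated best with its own number, a hint from the data and not the design. Reversed, without passing, were AT5G65840 and AT2G37240 (0.87 as deposited, 0.0377 with centring), AT1G02060 and AT2G37230 (0.20 as deposited, 0.15 without root replicate 1 or 2, 0.000296 without leaf replicate 4, and -0.27 without root replicate 4, the lowest with 1 array left out), AT1G71970 and AT1G22680 (0.31 as deposited) and AT1G12800 and AT3G23700 (0.15 as deposited). The cause was not tested. Values of 0 and low leaf values at some probes limit the ratios.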

Other observations

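AT2G27290, kept out of the members by values of 0, was listed at 0 on root replicates 1 and 2 and at the ceiling of 100 on root replicates 3 and 4, against 10.6, 9.82, 10.1 and 13.5 on leaf replicates 1 to 4. Its probe was chosen after its values were seen.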
